A study of Bos taurus with 94 samples.

Results

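The gene ENSBTAG00000005973 was followed across 94 RNA sequencing libraries of cattle tissue. It is 1 of 24616 Ensembl gene identifiers in the deposited table, and it was chosen because it stood furthest above the other tissues in the oviduct, the tube that carries the egg from the ovary to the uterus. Its oviduct level against the rest was therefore the basis of the choice and is given as a description, with no test. The table gives the identifier without a name or product, so its chromosome position and whether it encodes a secreted protein were not analysed here.

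The libraries were made from total RNA of snap-frozen tissue of Hereford cattle, all labelled adult, the fetal testis among them, and were collected as a tissue survey rather than a treatment study. They fell into 37 groups by tissue label. The oviduct gave 2 ampulla, 2 infundibulum and 2 isthmus libraries, 1 from each side of the tract. The side is labelled ipsilateral or contralateral, for infundibulum and isthmus with reference to CL, the usual abbreviation for corpus luteum, which forms on the ovary that has ovulated. The other 88 libraries covered the remaining tissues, and 16 tissue groups had a single library. No animal is named in the labels, so p-values measure the spread between libraries, which may come from the same animal. Levels are FPKM, which relates the fragments of a gene to its transcript length and to the mapped fragments of the library. The depth of sequencing is unknown. Some libraries went against their labels: by profile, the choroid plexus and corpus luteum libraries most resembled skeletal muscles, the diaphragm the gall bladder and the ipsilateral isthmus the cervical lining. Genes at 1 FPKM or more numbered 7353 in the choroid plexus, 10241 in the corpus luteum and 12463 in the diaphragm. The ipsilateral isthmus had 10896 and the contralateral isthmus 13161. Whether few detected genes shaped these likenesses was not tested, and the libraries keep their labels here.

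The infundibulum is the funnel that takes up the ovulated egg, the ampulla is the wide part where fertilization takes place, and the isthmus is the narrow, muscular part next to the uterus where sperm are held. The lining of the tube consists mainly of secretory cells, which release proteins into the oviductal fluid, and ciliated cells, which move that fluid. Both cell types respond to ovarian steroids, and their proportions differ along the tube. Because the identifiers carry no names, marker genes of secretory, ciliated, muscle and connective tissue cells could not be looked up in these libraries, and the labelled segments could not be checked against such markers.

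The gene divided the oviduct into 2 very unequal parts. In the ampulla it had 15895 FPKM on the ipsilateral and 29373 FPKM on the contralateral side. In the infundibulum it had 1703 FPKM on the ipsilateral and 15461 FPKM on the contralateral side. In the isthmus it had 4.94 FPKM on the ipsilateral and 4.13 FPKM on the contralateral side. The 4 ampulla and infundibulum libraries thus carried at least 1703 FPKM and both isthmus libraries fewer than 5. The share of all genes whose segments are parted in this way was not determined, and the gene was chosen for its oviduct level.

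ENSBTAG00000005973 was the most abundant of all genes in both ampulla libraries and in the contralateral infundibulum, where it alone took 2.42% of the summed FPKM of the ipsilateral ampulla, 4.21% of the contralateral ampulla and 2.25% of the contralateral infundibulum. In the ipsilateral infundibulum it ranked 40 and took 0.264%. In the isthmus it ranked 7467 on the ipsilateral and 9995 on the contralateral side, above 69.7% and 59.4% of the 24616 genes. Genes at 1 FPKM or more numbered 10896 on the ipsilateral and 13161 on the contralateral side of the isthmus, and most of these were higher than it. It was therefore a low gene among those detected in the isthmus and a leading one in the rest of the tube.

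**Figure D1:**
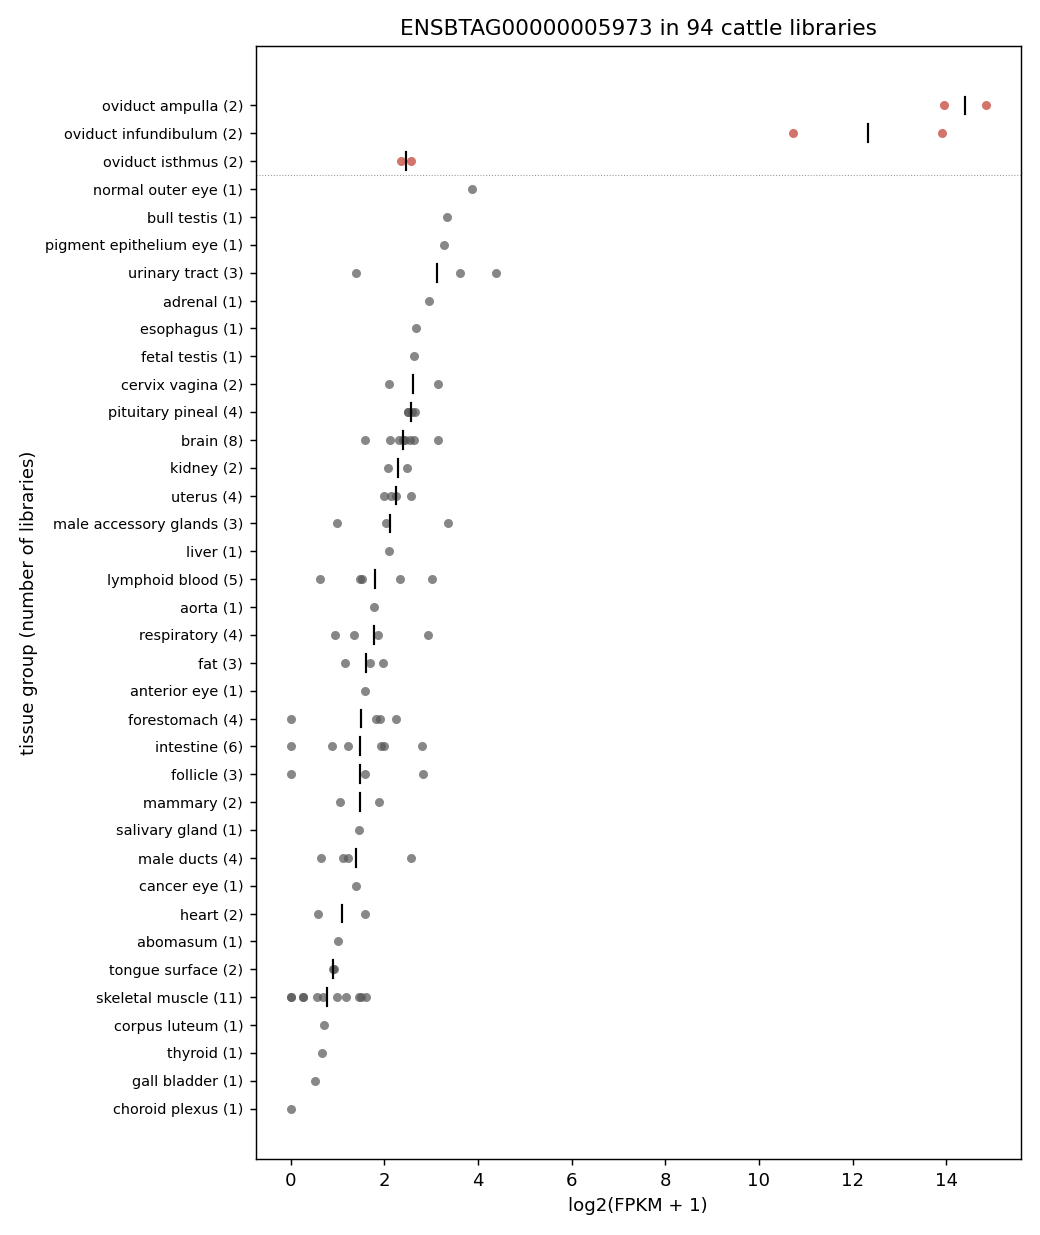
Level of ENSBTAG00000005973 as log2(FPKM + 1) in 94 libraries, grouped by tissue, with the number of libraries of each group in parentheses. Each point is a library (red for the oviduct, grey for the rest) and each vertical bar a group mean; the ampulla and infundibulum libraries lie at 10.73 or above, and no other library exceeds 4.39.

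Outside the oviduct the gene was found at low levels in most tissues. The 88 libraries ran from 0 to 19.9 FPKM, with a median of 2.5 FPKM. It reached an FPKM of 1 or more in 66 of them and of 10 or more in 3, and it was listed at 0 in 6. The lowest ampulla or infundibulum library lay 85.4-fold above the highest library outside the oviduct. Of the 18031 genes kept by a filter on low values, 141 (0.782%) had all ampulla and infundibulum libraries above every library outside the oviduct. By the size of that gap in log2(FPKM + 1) this gene ranked 2, behind ENSBTAG00000024849, a gene described below. On the log2(FPKM + 1) scale, which understates the folds of low genes, the oviduct mean exceeded the mean of the rest by 7.97, against 7.49 for the gene next in that order. By the gap between the oviduct median and the 90th percentile of the rest, the gene came second, with 9.35. Above it was again ENSBTAG00000024849, with 10.30, and the gene below it had 6.30.

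The isthmus lay inside the range of unrelated tissues. Of the 88 libraries outside the oviduct, 19 had a higher level than either isthmus library and 62 a lower level than both. The isthmus mean of 4.54 ± 0.572 FPKM (SD, n = 2) was 1.81 times the median of the 88 libraries. In bulk tissue, fewer cells of a type and less RNA per cell cannot be told apart, so the level in the isthmus does not say which of these differs from the ampulla.

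The isthmus libraries themselves differed in how far they resembled the rest of the oviduct. Over the 18031 genes that passed the filter on low values (FPKM no lower than 1 in 3 or more libraries), the contralateral isthmus was closest to the ipsilateral ampulla (Spearman's rho 0.947). The ipsilateral isthmus was closest to the cervical lining (rho 0.884), and its closest oviduct library was the contralateral isthmus (rho 0.854). The ampulla sides had a rho of 0.981 with each other and the infundibulum sides 0.974. These are correlations across genes, and genes do not count as replicates. Although only 1 of the isthmus libraries had the ampulla as its closest profile, both held ENSBTAG00000005973 at almost the same low level, within a factor of 1.2.

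The segments were compared by limma over the 18031 genes, within the 6 oviduct libraries. On the log2(FPKM + 1) scale the gene averaged 13.36 ± 1.80 in ampulla and infundibulum (SD, n = 4) and 2.46 ± 0.15 in the isthmus (SD, n = 2). The difference was 10.90 ± 1.01 (SE), with an unadjusted p of 0.000323 and a Benjamini-Hochberg adjusted p of 0.0889, which missed the threshold of 0.05. limma called 2 of the 18031 genes, or 0.0111%, where a call needs an adjusted p below 0.05 together with a log2 difference of 1 or more. An exact two-sided permutation test of the gene alone gave p = 0.133, the smallest that 4 libraries against 2 allow. All 4 ampulla and infundibulum libraries were higher, and the lowest of them was 345 times the highest isthmus library. The same 4 libraries set the high oviduct level for which the gene was chosen, so these p-values are not free of that choice.

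The call differed between fits. When all 94 libraries supplied the spread, the limma adjusted p was 4.71e-19, and 747 genes were called. Most of these libraries are tissues outside the oviduct in which the gene was low. Their spread does not stand for that of the oviduct libraries, so this p-value is not stronger evidence. Without the ipsilateral isthmus, the library closest to the cervical lining, the difference was 11.003. Without the contralateral isthmus it was 10.79, and only in the latter fit did the gene pass. The SE was 1.55 in both, larger than the 1.01 with all 6 oviduct libraries, so that pass is not stronger evidence for this gene. The single isthmus library left in each of these fits is assumed to vary like the other segments. The size of the difference varied little, from 10.10 to 11.69 over the 6 fits that each left out 1 oviduct library.

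Compared with other genes the segment difference was among the largest. The gene was chosen for its oviduct level, which the ampulla and infundibulum libraries also set, so this standing is partly fixed by the choice. Of the 18031 genes, 1 had a larger difference between ampulla and infundibulum and the isthmus in either direction. Among genes higher in ampulla and infundibulum the next below had 5.50, and the largest difference toward the isthmus was -7.97. The median over all genes was 0.15. A difference of at least 4 was found toward ampulla and infundibulum in 14 genes and toward the isthmus in 10. For comparison, the 100 other genes with the largest gap between the oviduct median and the 90th percentile of the rest had a median segment difference of 2.82, with a range from -0.64 to 11.39. Of these 100 genes, 99 were higher in ampulla and infundibulum than in the isthmus, and 3 had both isthmus libraries at or below the 90th percentile outside the oviduct. ENSBTAG00000005973 met that same condition, since that percentile was 6.87 FPKM and its isthmus levels were below 5. The list was drawn from these libraries by the median of the oviduct, where most libraries are ampulla or infundibulum. That choice favours genes high in those segments, and no test was made on the list. The matching shares of all genes were not determined.

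**Figure D2:**
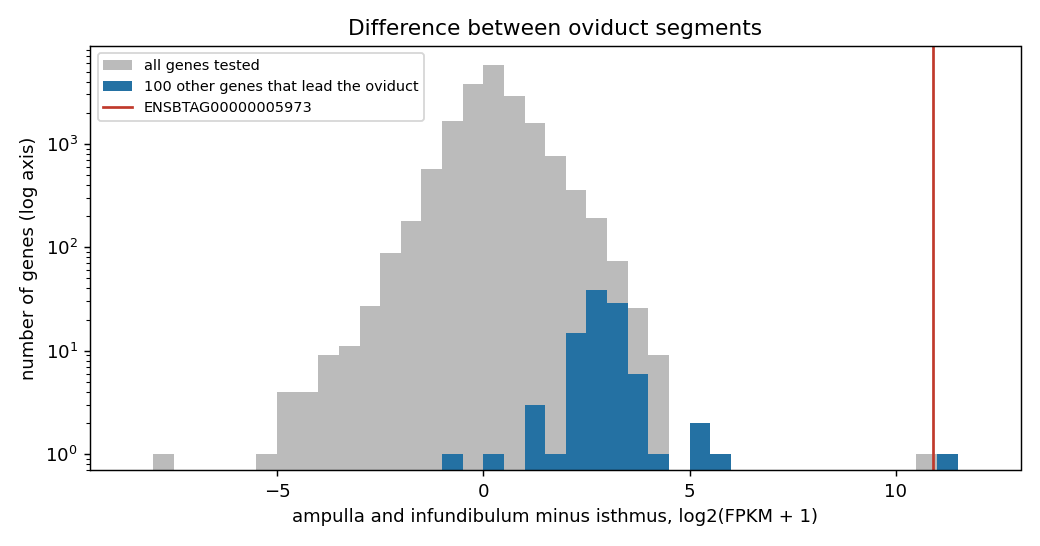
Difference between ampulla and infundibulum (n = 4) and isthmus (n = 2) on the log2(FPKM + 1) scale, with the number of genes on a log axis, for all 18031 genes tested (grey) and for 100 other genes that lead the oviduct (blue). The red line marks ENSBTAG00000005973 at 10.90; the blue genes have a median of 2.82.

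Within the upper part of the tube, the ampulla averaged 22634 ± 9531 FPKM and the infundibulum 8582 ± 9728 FPKM (SD, n = 2 each). Both ampulla libraries were above both infundibulum libraries, but the ipsilateral ampulla and the contralateral infundibulum were close, at 15895 and 15461 FPKM. The log2 difference of 2.07 ± 1.17 (SE) did not pass the test (limma adjusted p = 0.775), and limma called 0.0333% of the genes. An exact two-sided permutation test gave p = 0.333, the smallest possible for 2 libraries against 2. Without the ipsilateral infundibulum the log2 difference was 0.48, and without the contralateral infundibulum it was 3.66.

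The sides of the tract were then set against each other. In the infundibulum the ipsilateral library held 1703 FPKM and the contralateral library 15461 FPKM, so that the contralateral level was 9.08 times the ipsilateral one. In the ampulla the contralateral level was 1.85 times the ipsilateral one. In the isthmus the order was the other way, with the ipsilateral level 1.2 times the contralateral one. The log2 differences, ipsilateral minus contralateral, were -0.89 in the ampulla, -3.18 in the infundibulum and 0.21 in the isthmus.

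Each of these pairs is a single library a side, so none has a replicate check. Only the infundibulum pair differed at least 4-fold in this gene. In that pair 0.277% of the 18031 genes did so, counting those that reached 10 FPKM on 1 side at least, and 14 genes had a larger absolute difference than ENSBTAG00000005973. The corresponding share was 0.377% in the ampulla and 8.09% in the isthmus. Over the 3 pairs, with the segment as a block, the log2 difference was -1.29 ± 0.83 (SE; limma adjusted p = 0.983). limma called 0 of the 18031 genes (0%) in this comparison, with 265 at an unadjusted p under 0.05. An exact two-sided permutation test of the gene over the 3 pairs gave p = 0.5, where 0.25 is the smallest possible. Without the infundibulum pair the log2 difference was -0.34, and without the isthmus pair it was -2.03.

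**Figure D3:**
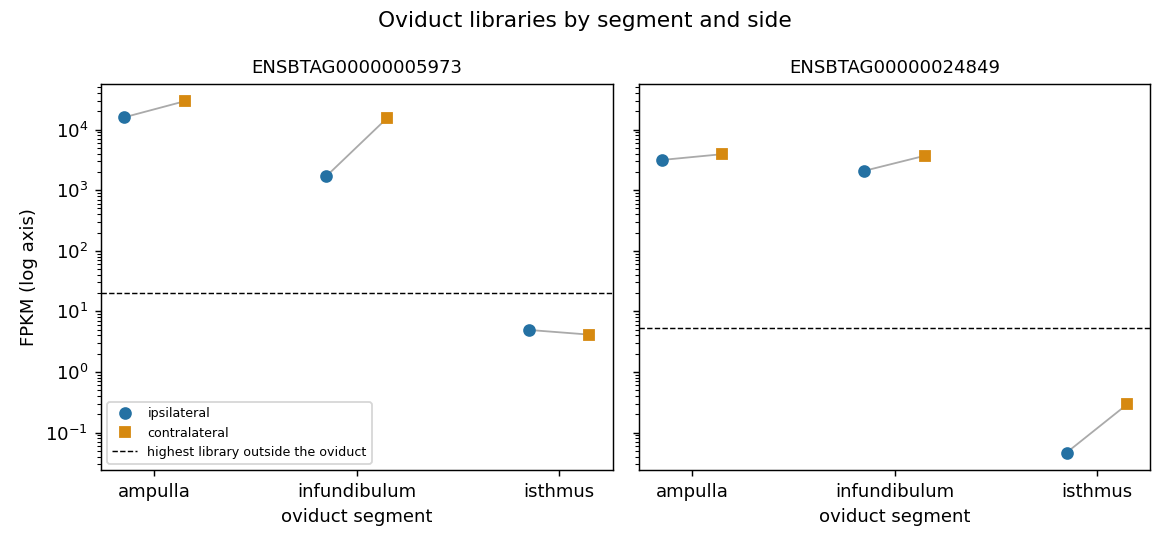
FPKM on a log axis in the 6 oviduct libraries by segment, for ENSBTAG00000005973 (left) and ENSBTAG00000024849 (right); circles are ipsilateral and squares contralateral libraries, joined within a segment. The dashed line is the highest library outside the oviduct, at 19.9 and 5.25 FPKM; both genes lie far above it in ampulla and infundibulum and below it in the isthmus.

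Among the other 88 libraries the gene showed no second tissue of high expression. The highest was the urethra, the outlet of the bladder, with 19.9 FPKM, followed by the normal outer eye layer beside an eye cancer with 13.7 FPKM and the ureter with 11.3 FPKM. The prostate had 9.23 FPKM, the bull testis 9.07, the pigment epithelium of the eye 8.71 and the pons 7.87. In the urethra the gene stood above 81.9% of all genes, its highest standing outside the oviduct.

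The parts of the female tract below the oviduct were not set apart from other tissues. The fornix of the vagina had 7.83 FPKM and the cervical lining 3.30 FPKM. In the uterus the ipsilateral and contralateral intercaruncular endometrium had 4.93 and 3.76 FPKM, the caruncular endometrium 3.42 FPKM and the myometrium 3.003 FPKM. The 4 uterine libraries thus held about as much as the isthmus, and their range from 3.003 to 4.93 FPKM overlapped it. The library labelled corpus luteum, whose closest profile was a back muscle (rho 0.956), had 0.632 FPKM. The 3 follicle libraries, from the part of the ovary that releases the egg, had 0, 6.14 and 2.01 FPKM.

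Male reproductive tissues spanned a similar range. The head of the epididymis had 4.96 FPKM, the vas deferens 1.35, the tail 1.17 and the body 0.562. The vesicular gland had 3.101 FPKM and the bulbourethral gland 0.993, and the fetal testis had 5.21. None of these libraries reached the levels of the urethra.

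In the order of group levels, by mean log2(FPKM + 1), the ampulla came first and the infundibulum second, and the other 35 groups followed far below. Groups of 1 library have no spread to compare. Among the 21 groups of 2 or more libraries there are 20 neighbouring pairs. In 2 of them the ranges did not overlap, ampulla above infundibulum and infundibulum above urinary tract. The order was made from this gene's own levels, and the gene was chosen for its oviduct level. The ampulla and infundibulum ranges were parted only by 15895 against 15461 FPKM. The share of all genes with such gaps was not determined. Below the infundibulum, the means of groups of 2 or more libraries ran from 10.9 FPKM in the urinary tract to 0.852 FPKM in skeletal muscle. The isthmus stood between the pituitary and pineal group (4.93 ± 0.318 FPKM, SD, n = 4) and the brain (4.50 ± 1.68 FPKM, SD, n = 8).

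Each of the 13 classes of 3 or more libraries outside the oviduct was compared with the other libraries outside it by limma. The gene passed in 1 class, skeletal muscle, where it was lower. In 11 muscle libraries it had a lowest level of 0, a median of 0.618 and a highest level of 2.04 FPKM, against 0, 2.94 and 19.9 FPKM in the other 77. All 11 muscle libraries lay below the median of the others, though the ranges overlapped. The log2 difference was -1.13 ± 0.30 (SE; limma adjusted p = 0.000746), in a comparison in which 36.8% of all genes were called, 822 higher and 5806 lower, and the median gene differed by -0.64. With quantile normalization the median gene differed by -0.15, 1941 genes were higher and 1863 lower, and ENSBTAG00000005973 no longer passed, at -0.39 (adjusted p = 0.287). Muscle had the largest share of called genes among the 13 classes, so a lower level there was common among genes. Without the libraries labelled diaphragm, choroid plexus and corpus luteum the difference was -1.15 (adjusted p = 0.000673).

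In the other 12 classes the log2 differences ran from -0.39 to 1.42 and the limma adjusted p from 0.147 to 0.999. The urinary tract had the largest difference, 1.42 ± 0.56 (SE; unadjusted p = 0.0136, adjusted p = 0.833), with 0.172% of genes called. Its 3 libraries disagreed, since the urethra and ureter lay at 19.9 and 11.3 FPKM and the bladder at 1.62 FPKM. Without the urethra the difference was 0.79, below that of the pituitary and pineal group, and without the bladder it was 2.29. The brain had a lowest level of 2.01, a median of 4.36 and a highest level of 7.87 FPKM, against 0, 2.04 and 19.9 FPKM in the other 80 libraries (log2 difference 0.70 ± 0.36, adjusted p = 0.147), with 19.3% of genes called. All 4 pituitary and pineal libraries were above the median of the other 84 libraries, from 4.67 to 5.33 FPKM, and all 4 uterine libraries likewise, with log2 differences of 0.84 and 0.50 (adjusted p = 0.359 and 0.613). With quantile normalization these were 0.31 and -0.12, so the direction in the uterus turned. In these comparisons 7.05% and 6.27% of genes were called. The other 8 classes, in which the gene did not pass either, had 9.98% of genes called in lymphoid tissue and blood, 6.51% in intestine, 4.77% in forestomach, 0.904% in the male ducts, 0.233% in follicles, 0.0943% in fat, 0.0166% in the respiratory tract and 0.00555% in the male accessory glands. In the classes with few calls a miss says little about this gene.

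Outside the oviduct the level also moved with the number of genes detected in a library. On the log2(FPKM + 1) scale it had a Pearson r of 0.50 and a Spearman rho of 0.48 with the number of genes that reached 1 FPKM, over 88 libraries of different tissues. Without the 2 libraries farthest from the median of genes detected r was 0.43. The part of this relation in the class differences was not tested.

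The gene with the most similar pattern was ENSBTAG00000024849, which the table also leaves unnamed. Over the 94 libraries its Pearson r with ENSBTAG00000005973 on the log2(FPKM + 1) scale was 0.956, the only r of 0.9 or more among 18030 genes. This value rests largely on the 4 ampulla and infundibulum libraries. The next gene was ENSBTAG00000017576 (r = 0.895), which had 2.32 to 16.5 FPKM in those 4 libraries, was listed at 0 in both isthmus libraries and had at most 0.753 FPKM outside the oviduct.

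ENSBTAG00000024849 had the same division of the oviduct, which its choice by r over the 94 libraries favoured. It had 3149 FPKM in the ipsilateral and 3930 FPKM in the contralateral ampulla. The ipsilateral and contralateral infundibulum had 2082 and 3700 FPKM. The ipsilateral and contralateral isthmus had 0.0466 and 0.293 FPKM. It was the 1 gene whose segment difference, at 11.39, exceeded that of ENSBTAG00000005973. Its lowest ampulla or infundibulum library lay 396 times above its highest library outside the oviduct. In the infundibulum its contralateral level was 1.78 times the ipsilateral one, so its 2 sides lay closer together than the 9.08-fold of ENSBTAG00000005973; that difference was not tested.

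**Figure D4:**
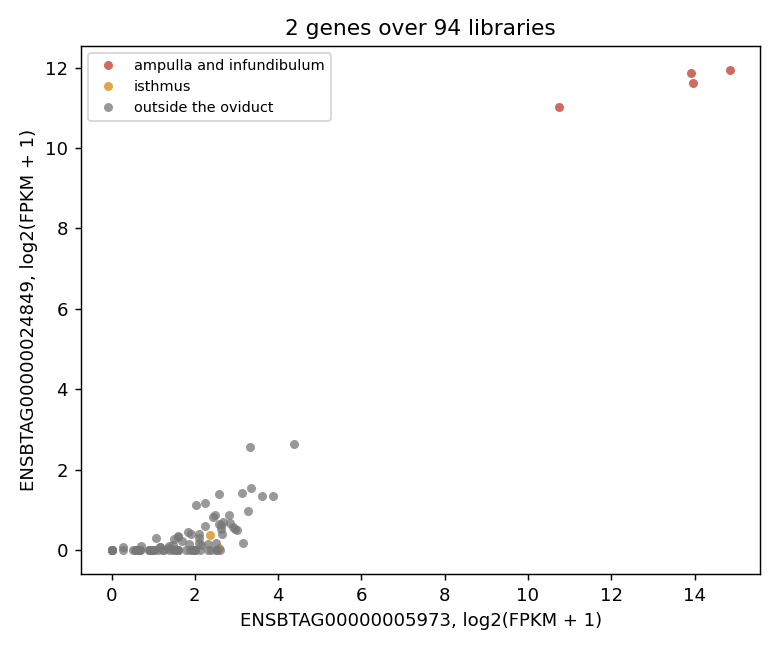
ENSBTAG00000005973 against ENSBTAG00000024849 in 94 libraries, both as log2(FPKM + 1); red points are ampulla and infundibulum, orange isthmus and grey all other tissues. The 4 red points stand apart at the upper right, and r over the 88 grey points is 0.70.

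The likeness of the pair extended to their low levels elsewhere. Over the 88 libraries outside the oviduct r was 0.70, the highest of any gene with ENSBTAG00000005973 in those libraries, and Spearman's rho was 0.71. Without the 2 libraries farthest from the median level of ENSBTAG00000005973 r was 0.64. The urethra was the highest library outside the oviduct for both genes, and 7 of the 10 highest libraries of each gene were shared. ENSBTAG00000024849 was listed at 0 in 42 of the 88 libraries and reached an FPKM of 1 or more in 9.

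The ratio of the 2 genes varied widely. In FPKM, ENSBTAG00000005973 was 0.818 to 7.47 times ENSBTAG00000024849 in the 4 ampulla and infundibulum libraries. In the isthmus it was 106 times on the ipsilateral and 14.1 times on the contralateral side, where ENSBTAG00000024849 was almost undetected. In the 46 libraries outside the oviduct where ENSBTAG00000024849 was above 0, the ratio ran from 1.82 to 129.7 with a median of 8.93. The 18 of them where it reached an FPKM of 0.5, a condition that keeps the ratio low, had ratios from 1.82 to 10.3 with a median of 6.37. Whether traces of oviduct RNA or reads contribute to the low levels in other tissues was not tested.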

How the data were processed

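The deposited values are FPKM per gene and library, per the file headers and labels. HISAT2, StringTie and genome build UMD3.1 are named in the submitters' processing notes. Tool versions and the annotation are not stated there. FPKM totals per library ran from 585122 to 1062591, and depth is unknown, so no counting intervals are given. The ARS-UCD2.0 gene table used pairs 0 of the 24616 identifiers with a symbol, so the planned lists of cell type markers and oviduct proteins were not run, and no sequence is shown.

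Values were analysed as log2(FPKM + 1). The filter on low values kept genes that reached 1 FPKM in 3 or more libraries (18031, ENSBTAG00000005973 among them). These were tested two-sided with limma 3.58.1 (R 4.3.3) and a trended empirical Bayes prior, and p-values were adjusted over all of them by Benjamini-Hochberg. Calls needed an adjusted p below 0.05 and an absolute log2 difference of 1 or more. Segments were fitted on the 6 oviduct libraries, sides with the segment as a block, and classes on the 88 libraries outside the oviduct. On simulated data the fits were checked only for the average estimate of a known change, not for the rate of false calls. Single-gene tests were exact permutation tests (scipy 1.17.1). The genes named beside the chosen one are the 2 with the highest Pearson r over 94 libraries. The list of 100 genes, the ratio of the 2 genes and the muscle comparison without 3 libraries were added after values were seen. The gene, groups and tests were chosen with earlier results of these data known. Alternatives were a pseudocount of 0.1, no filter, equal totals, quantile normalization, other spreads and blocks, and each library left out.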

Additional observations from a re-analysis of the deposited data

Results flagged for a closer look

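The side difference of ENSBTAG00000005973 did not have the same direction in every oviduct segment. Ipsilateral minus contralateral, on the log2(FPKM + 1) scale, was -0.89 in the ampulla and -3.18 in the infundibulum but 0.21 in the isthmus. Each value is 1 library against 1, and the difference between segments was not tested. In the isthmus both libraries were below 5 FPKM, and the difference of 0.21 is smaller than that of 76.8% of genes in the same pair. Outlying libraries were sought in the 8 groups of 4 to 10 libraries, by the gap to the next library relative to the range. No library passed the cutoff of that rule. In the male ducts the head of the epididymis came just under it, at 4.96 FPKM against 1.35 FPKM for the next library.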

How the results depend on the processing

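The difference between ampulla and infundibulum and isthmus kept its direction in every alternative run, between 10.90 and 11.46 on the log2 scale over 6 settings and between 10.10 and 11.69 with each library left out. It passed the threshold in 2 of these 12 fits, at 10.90 with the spread from all libraries and at 10.79 without the contralateral isthmus. The first of these takes its spread mostly from tissues outside the oviduct, which need not vary like the oviduct libraries. The second leaves a single isthmus library. Its SE of 1.55 was larger than the 1.01 of the main fit, so its pass is not stronger evidence for this gene. With the side as a block its adjusted p was 0.255. Ampulla minus infundibulum ran from 1.94 to 2.07 over 6 settings and from 0.48 to 3.66 with each library left out, and it passed in none. Ipsilateral minus contralateral ran from -1.34 to -0.96 and, with each library left out, from -2.03 to -0.34, again passing in none. The number of classes outside the oviduct in which the gene passed was 1, and it remained 1 without any single one of the 88 libraries and under 4 other settings; with quantile normalization it was 0. The uterine difference of 0.50 turned to -0.12 with quantile normalization, and the cause was not tested. The urinary difference ran from 0.79 to 2.29 with each of its libraries left out. The muscle difference ran from -1.999 with a pseudocount of 0.1 to -0.39 with quantile normalization. Genes called between ampulla and infundibulum and isthmus numbered 2, against 38 with a pseudocount of 0.1, 7 with no filter, 1 with equal totals or quantile normalization and 0 with the side as a block. With each library left out they numbered from 0 to 5525, and 47 without the ipsilateral isthmus. Between ampulla and infundibulum they numbered 6, against 17 with a pseudocount of 0.1, 4 with equal totals, 136 with the spread from all libraries and 0 with quantile normalization or the side as a block. The labels carry no replicate numbers. No paired analysis was possible because of that, other than by side. With 2 libraries a segment, 1 on each side, and unknown depth, differences among the upper segments or between sides cannot be resolved.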
